A study of Rattus norvegicus and Bos taurus with 6 samples.

Results

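Lymphatic endothelial nuclei were searched for in single-nucleus RNA-seq of adipose tissue from male SS/HsdMcwiCrl (Dahl SS) rats. The nuclei were chosen by their own UMI counts (unique molecular identifiers, 1 per captured RNA molecule). A nucleus was taken when it held at least 2 UMIs of Prox1, Ackr4, Flt4, Mmrn1, Reln and Foxp2 together, from at least 2 of these genes or from Prox1 alone, and no UMI of Pdgfra, Ptprc or Adipoq, which mark progenitors, leukocytes and adipocytes. The rule took 278 of 17127 rat nuclei (1.62%, exact 95% interval 1.44 to 1.82%). The 5 rat libraries were 1 10x library of mesenteric perivascular fat (mesPVAT) and 4 Parse Evercode libraries, labelled mesPVAT, retroperitoneal (RP) fat, thoracic aortic perivascular fat (taPVAT) and subscapular brown fat (BAT). A sixth library held subcutaneous fat of Holstein cows. The labels name no treatment, and all rats were labelled disease-free, housed at 22 °C and supplied by Charles River Laboratory, and the tissue was snap frozen. The labels give neither the age nor the number of rats behind a library.

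Each depot and platform was 1 library, so no difference between libraries could be tested, and all intervals cover counting error only. Intervals of levels pool the UMIs of a class and leave out the spread between nuclei. Whether such intervals overlap is therefore a description and not a test. The 10x nuclei were sorted on DAPI after another isolation protocol, in the batch labelled 1, and the Parse nuclei were fixed, in the batch labelled 2. Kit, protocol, annotation and batch therefore cannot be told apart between the 10x library and the others. The libraries held 1237543 UMIs (10x), 1656726 (labelled mesPVAT), 845316 (labelled RP fat), 5100216 (taPVAT) and 6317970 (BAT). No cell barcode was shared between any 2 of the rat libraries. The 2 white Parse libraries are called by their labels, and their median genes per nucleus were 304 in that labelled mesPVAT and 197 in that labelled RP fat. The study describes these medians in the opposite order, so the depots of these libraries may be exchanged.

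Lymphatic capillaries take up fluid, lipid and immune cells from tissue, and their endothelium is set apart from that of blood vessels by the transcription factor Prox1. VEGFR3, encoded by Flt4, receives VEGF-C on these cells, and Ackr4 scavenges the chemokine Ccl21, which lymphatic endothelium itself secretes to guide dendritic cells. Reln encodes the secreted protein reelin, which collecting vessels release toward their muscle coat, Mmrn1 a secreted multimerin, and Foxp2 a forkhead transcription factor found in collecting vessels. Adipose tissue drains through such vessels, and mesenteric fat surrounds the collectors that carry chyle from the gut.

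The 10x mesPVAT library held 118 lymphatic endothelial nuclei of 5887 (2.00%, 1.66 to 2.40%). The Parse library labelled mesPVAT had 46 of 3028 (1.52%, 1.11 to 2.02%), and that labelled RP fat had 51 of 2805 (1.82%, 1.36 to 2.38%). taPVAT had 48 of 2708 (1.77%, 1.31 to 2.34%), and BAT had 15 of 2699 (0.556%, 0.311 to 0.915%). The intervals of the first 4 libraries overlapped, and that of BAT lay below all of them. Depth differed widely, with a median of 161 UMIs per nucleus in the 10x library, 346 and 213 in the libraries labelled mesPVAT and RP fat, 1246 in taPVAT and 1706 in BAT. When each nucleus was thinned to 200 UMIs, the 10x library kept 43 lymphatic nuclei of 2099 (2.05%, 1.49 to 2.75%) and taPVAT 10 of 2708 (0.369%, 0.177 to 0.678%). The library labelled mesPVAT then had 5 of 2552 (0.196%), the library labelled RP fat 10 of 1503 (0.665%) and BAT 1 of 2699 (0.0371%). At this depth the 10x share was the highest, and its interval overlapped none of the other 4. Thinning left out 3788 shallower nuclei of the 10x library, 476 and 1302 of the white Parse libraries and none of taPVAT or BAT.

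**Figure D1:**
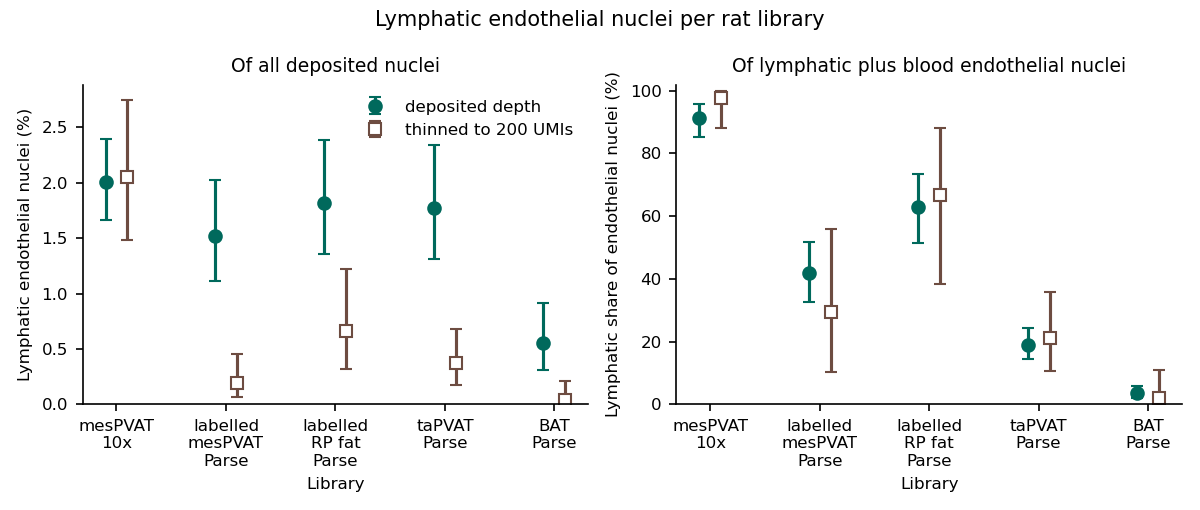
Lymphatic endothelial nuclei as a percentage of all deposited nuclei (left) and of lymphatic plus blood endothelial nuclei (right) in the 5 rat libraries, at deposited depth (circles) and after thinning to 200 UMIs (squares), with exact 95% intervals. At deposited depth the share of nuclei runs from 0.556% in BAT to 2.00% in 10x mesPVAT, whereas the share of endothelial nuclei runs from 3.65% to 91.5%.

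Among nuclei taken by either endothelial rule, the lymphatic share ran from 3.65% to 91.5% between libraries. It counts all nuclei the lymphatic rule took, including those of taPVAT and BAT whose endothelial genes, and those of the library labelled mesPVAT whose lymphatic surface genes, given below, did not bear the label out. It also counts the 51 nuclei of the library labelled RP fat, spread over 19 of its 24 clusters given below. Of these 51, 30 had no UMI of Prox1, 35 stood at exactly 2 UMIs and 21 had only Reln and Foxp2. Blood endothelial nuclei were taken as those with at least 2 UMIs from at least 2 of Flt1, Emcn, Vwf, Podxl, Plvap and Nostrin, by the same exclusions and not lymphatic. The 10x library held 11 of them beside 118 lymphatic nuclei, a lymphatic share of 91.5% (85.3 to 95.7%). taPVAT held 205 beside 48, a share of 19.0% (14.3 to 24.4%), and BAT held 396 beside 15, a share of 3.65% (2.06 to 5.95%). The library labelled mesPVAT held 64, a share of 41.8% (32.5 to 51.6%), and that labelled RP fat 30, a share of 63.0% (51.5 to 73.4%). No interval overlapped another except those of the 2 white Parse libraries, by less than 1 percentage point. With a UMI of Prox1 required the shares were 84.5% in the 10x library, 38.9% and 12.8% in those labelled RP fat and mesPVAT, 11.2% in taPVAT and 1.48% in BAT, and with at least 3 UMIs they were 83.5%, 32.7%, 17.1%, 13.8% and 1.24%. The order was the same after thinning, from 97.7% in the 10x library over 66.7%, 29.4% and 21.3% to 2.08% in BAT. Each thinned interval overlapped that of the next library in this order. They were 88.0 to 99.9% in the 10x library, 38.4 to 88.2% and 10.3 to 56.0% in those labelled RP fat and mesPVAT, 10.7 to 35.7% in taPVAT and 0.0527 to 11.1% in BAT. Both rules overlapped, and in taPVAT 25 of 48 lymphatic nuclei carried a UMI of a blood rule gene, 20 of them among the 26 with Prox1, and 13 met the whole blood rule. Within the 10x lymphatic nuclei, 40 of 118 carried a UMI of a blood rule gene and 11 met the whole blood rule. Of the library's 96 UMIs of Emcn, which codes for endomucin of veins and capillaries, 43 lay in the lymphatic nuclei. The rules were not alike, since nuclei that met both counted as lymphatic and 24 of the 118 entered on Prox1 alone. Of the blood rule genes, Plvap and Nostrin had 5 and 2 UMIs in the whole 10x library. Of that library's 190 UMIs of Pecam1, 30 lay in the lymphatic and 17 in the blood endothelial nuclei. The shares therefore cover only nuclei that met a rule, not the whole endothelium of a library.

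The values that chose the nuclei were small counts. Of the 278, 144 stood exactly at the threshold of 2 UMIs and 134 held 3 or more. Just outside it, 1402 nuclei held a single UMI of the 6 genes, and 250 held 2 or more of 1 gene other than Prox1. A further 105 met the lymphatic part of the rule but carried an excluded gene, Adipoq in 65, Ptprc in 37 and Pdgfra in 31, with some carrying more than 1. Prox1 was present in 156 of the nuclei, of which 29 rested on Prox1 alone, and 59 had only Reln and Foxp2. By library, Prox1 was present in 93 of 118 in 10x mesPVAT, 26 of 48 in taPVAT, 21 of 51 in the white Parse library labelled RP fat, 10 of 46 in that labelled mesPVAT and 6 of 15 in BAT. Lymphatic nuclei are therefore also described below with and without a UMI of Prox1, a split made after their values were seen.

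In 10x mesPVAT and taPVAT Prox1 was the rule gene with the largest share of its UMIs in these nuclei, a description since the rule used it. Of its 258 UMIs in the 10x library, 189 (73.3%) lay in the lymphatic nuclei, which held 3.89% of all UMIs. In taPVAT, 80 of 116 (69.0%) lay in them, which held 1.82% of all UMIs. Ackr4 had 40 of 66 UMIs there in the 10x library and 6 of 10 in taPVAT. Flt4 was sparse in the 10x library, with 5 of 8 UMIs there and 40 of 128 in taPVAT. Mmrn1 had 14 of 25 and 18 of 27. Reln had 17 of 30 in the 10x library and 51 of 154 in taPVAT, where 35 lay in adipocyte reference nuclei, those with at least 2 UMIs from at least 2 of 5 adipocyte genes. Foxp2 had the smallest share of the 6 in both, with 195 of 497 UMIs (39.2%) in lymphatic nuclei of the 10x library and 137 of 1474 (9.29%) in taPVAT, where adipocyte reference nuclei held 825 (56.0%).

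**Figure D2:**
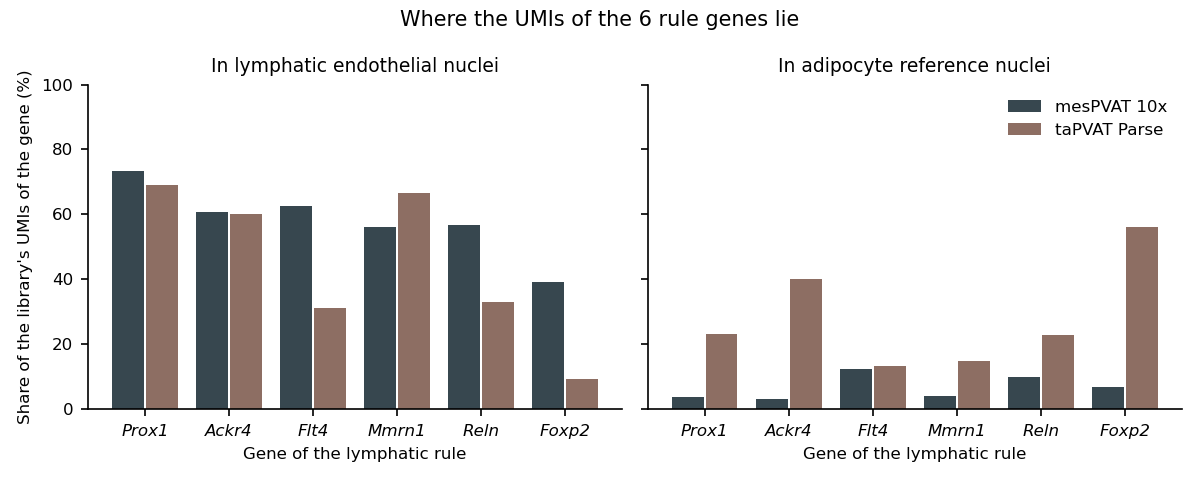
Share of each library's UMIs of the 6 rule genes that lay in lymphatic endothelial nuclei (left) and in adipocyte reference nuclei (right), in % of the gene's UMIs, for 10x mesPVAT and taPVAT. Prox1 stands at 73.3% and 69.0% in lymphatic nuclei, and Foxp2 at 56.0% in the adipocyte nuclei of taPVAT.

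The label was checked with 22 pan-endothelial genes that the rule did not use, among them Pecam1, Cdh5, Tie1, Erg and Fli1. Levels are given as the list's summed UMIs per 1000000 UMIs of the class (CPM). In the 10x library these genes summed to 8618 CPM (7808 to 9488) in lymphatic nuclei, against 22696 (18051 to 28171) in the 11 blood endothelial and 1269 (1142 to 1407) in the 950 adipocyte reference nuclei. The 10x level was 8631 CPM with Prox1 and 8571 CPM without it, with overlapping intervals. In taPVAT the nuclei with Prox1 had 9756 CPM (8958 to 10605) and those without had 3757 CPM (3154 to 4441), near the 3018 CPM of adipocyte reference nuclei and far from the 14651 CPM of blood endothelial nuclei. In BAT the 15 lymphatic nuclei had 4407 CPM (3839 to 5036), against 15494 CPM in blood endothelial and 3022 CPM in adipocyte reference nuclei. The library labelled mesPVAT had 5363 CPM against 9592 in blood endothelial and 2733 in adipocyte reference nuclei, and the library labelled RP fat had 3925 CPM against 5127 and 1922. In the library labelled RP fat the lymphatic (3347 to 4574) and blood endothelial (4268 to 6109) intervals overlapped, and in every library the lymphatic level was the lower. Set against all other nuclei of their library, the 10x nuclei stood above (2053 CPM in the others), as did the taPVAT nuclei with Prox1 (4577 CPM in the others) and, by less, those of the libraries labelled mesPVAT (4188 CPM) and RP fat (3012 CPM). The taPVAT nuclei without Prox1 and the BAT nuclei (5321 CPM in the others) stood below, which goes against an endothelial label for them, and they are included here by the rule alone.

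A list of 13 lymphatic surface and secreted genes outside the rule divided the libraries otherwise. It summed to 5648 CPM (4997 to 6361) in the 10x lymphatic nuclei, 3045 CPM (1520 to 5448) in its blood endothelial nuclei and 403 CPM in its adipocyte reference nuclei, so that the lymphatic and blood intervals overlapped. In taPVAT it was 3240 CPM (2788 to 3745) in nuclei with Prox1, 1070 CPM (761 to 1462) in those without and 682 CPM (600 to 771) in blood endothelial nuclei. BAT had 1551 CPM (1222 to 1941) against 962 CPM (896 to 1031), without overlap. The library labelled RP fat had 1245 CPM (930 to 1632) against 533 CPM (284 to 912), also without overlap. These rested on 52 UMIs in 21 of 51 lymphatic nuclei and 13 UMIs in 10 of 30 blood endothelial nuclei. The library labelled mesPVAT had 652 CPM (443 to 925) against 681 CPM (502 to 903). In all other nuclei of that library the list was at 585 CPM (548 to 623), within the lymphatic interval, and its 36 lymphatic nuclei without Prox1 were at 448 CPM, so the lymphatic name is not borne out there by this list. The most abundant member was Pkhd1l1, which codes for a large membrane protein of the fibrocystin family. It held 168 of the list's 272 UMIs in 10x lymphatic nuclei, 8 of 11 in 10x blood endothelial nuclei and 100 UMIs in taPVAT lymphatic nuclei. In lymphatic nuclei lay 16.5% of its 1017 UMIs in the 10x library and 25.4% of its 393 in taPVAT. Those nuclei held 3.89% and 1.82% of all UMIs. A list of 12 adipocyte genes summed to 1454 CPM in the 10x lymphatic nuclei. It came to 5241 CPM in taPVAT nuclei with Prox1, 12697 CPM in those without and 7090 CPM in taPVAT blood endothelial nuclei, against 17087 CPM in adipocyte reference nuclei. In BAT the 15 nuclei had 11507 CPM of it against 7252 CPM in blood endothelial nuclei. In the library labelled mesPVAT it was higher in lymphatic nuclei, at 3449 CPM (2942 to 4019), than in blood endothelial nuclei, at 2100 CPM (1775 to 2467), without overlap, and in that labelled RP fat it was 981 CPM against 1272 CPM. Of the 12 genes, 11 were detected in the lymphatic nuclei of taPVAT and of BAT and 9 in those of the 10x library, and 4 of the 12 also chose the adipocyte reference nuclei. The part of adipocyte RNA in the endothelial values was not tested.

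**Figure D3:**
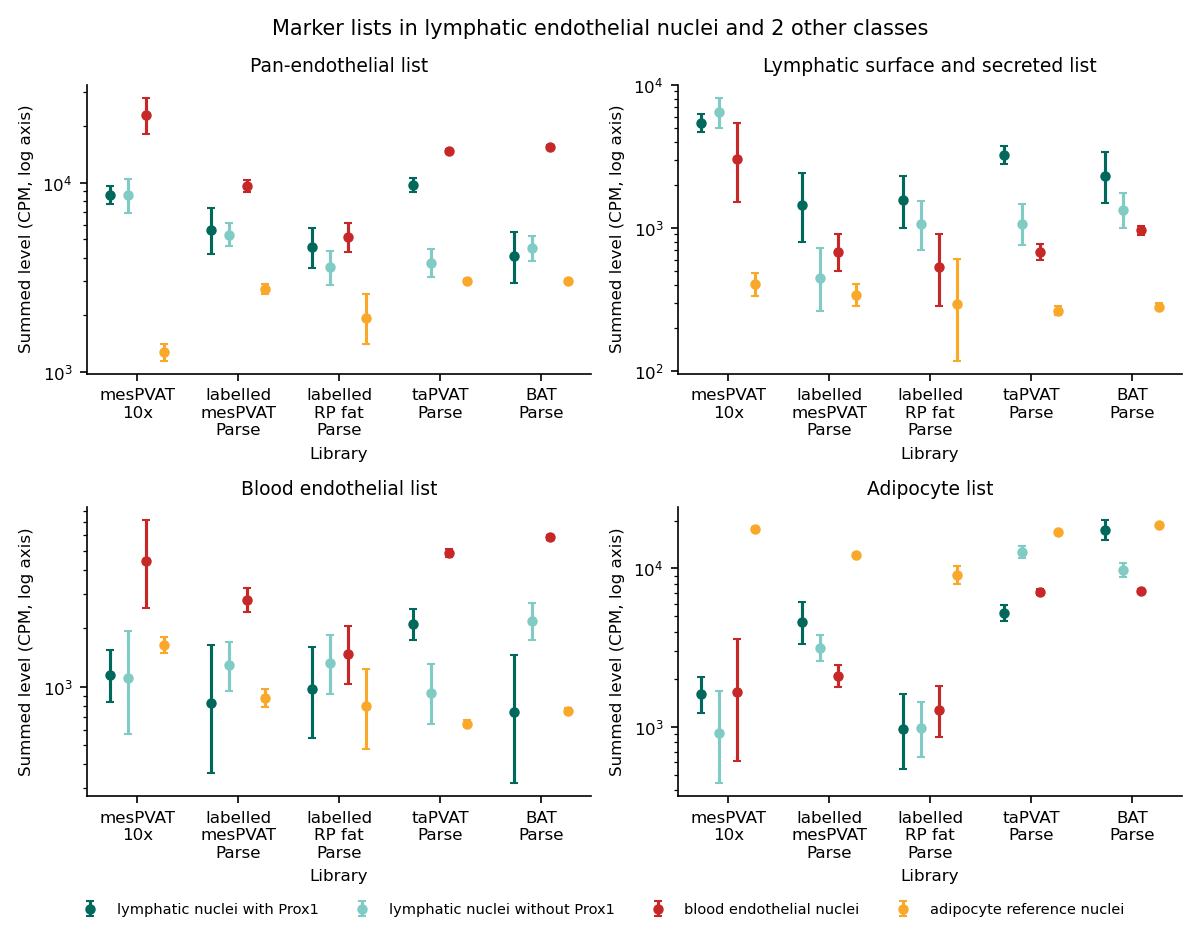
Summed level (CPM, log axis) of 4 marker lists in lymphatic endothelial nuclei with and without a UMI of Prox1, blood endothelial nuclei and adipocyte reference nuclei of each rat library, with exact Poisson 95% intervals. In 10x mesPVAT both lymphatic kinds lie at 8631 and 8571 CPM of pan-endothelial genes, whereas in taPVAT those with Prox1 lie at 9756 CPM and those without at 3757 CPM.

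Markers of other cells were measured in the same nuclei. The 8 macrophage genes had 4 UMIs (83.1 CPM) in the 10x nuclei, 3 of them Mrc1, the mannose receptor that lymphatic endothelium is also known to carry, and the 8 lymphocyte genes had 0 UMIs (exact interval up to 76.6 CPM). Lymphocyte genes came to 742 CPM (504 to 1053) in the lymphatic nuclei of the library labelled RP fat, 15 of 31 UMIs being Skap1, an adaptor of T cells, against 328 CPM in blood endothelial and 626 CPM in all other nuclei. They came to 273 CPM in that labelled mesPVAT, 118 CPM in taPVAT and 81.6 CPM in BAT. In taPVAT, nuclei with Prox1 had 549 CPM (373 to 779) of the macrophage list, all 7 of its genes in the file detected and Mrc1 the most abundant with 11 of 31 UMIs, against 78.7 CPM in blood endothelial nuclei. The 12 stromal genes summed to 1412 CPM in the 10x and 2518 CPM in the taPVAT lymphatic nuclei, led by Lama2 and Ebf2, and to 1791 and 1994 CPM in the adipocyte reference nuclei. In taPVAT the lymphatic interval (2205 to 2862) lay above the blood endothelial level of 1852 CPM (1715 to 1996), and in the 10x library the blood endothelial level was 2214 CPM (956 to 4363). Smooth muscle and pericyte genes came to 415 and 495 CPM, with Mcam, an adhesion molecule that endothelium also bears, first in the 10x library and Abcc9 first in taPVAT. In BAT the 9 nuclei without Prox1 had 2514 CPM of that list and 1466 CPM of the Schwann cell list, of which 37 of 56 UMIs were Scn7a. Mesothelial genes summed to 914 CPM (664 to 1227) in the 10x lymphatic nuclei, 42 of 44 UMIs being Gpm6a, a membrane glycoprotein, against 554 CPM in blood endothelial and 617 CPM in adipocyte reference nuclei. In taPVAT they were higher in lymphatic nuclei, at 398 CPM (280 to 549) with Gpm6a at 36 of 37 UMIs and 584 CPM in those with Prox1, than in blood endothelial nuclei, at 117 CPM (84.5 to 157). They came to 383 and 231 CPM in the libraries labelled RP fat and mesPVAT. The part of these cells in the results was not tested.

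The nuclei were also placed among clusters made without any rule gene. In the 10x library, 1 cluster of 338 nuclei (6.65% of those within the study's thresholds) held 79 of 106 lymphatic nuclei (74.5%, 65.1 to 82.5%), 7 of 11 blood endothelial nuclei and 11 of 908 adipocyte reference nuclei. It held 58 of the 84 lymphatic nuclei with Prox1 and 21 of the 22 without it. In taPVAT, 1 cluster of 272 nuclei held 26 of 48 (54.2%, 39.2 to 68.6%), 20 of 26 with Prox1 and 6 of 22 without, beside 42 of 200 blood endothelial and 92 of 1156 adipocyte reference nuclei. At Leiden resolution 2.0, 22 of the 48 lay in a cluster of 45 nuclei with 1 blood endothelial nucleus. Lymphatic nuclei were found in 8 clusters of the 10x library and 10 of taPVAT, and in 17, 19 and 7 of the libraries labelled mesPVAT and RP fat and of BAT. In the library labelled mesPVAT, the cluster with most of them held 8 of 45 and was that of the adipocytes, with 377 of 436 adipocyte reference nuclei, 5 of 62 blood endothelial nuclei and Plin1, a lipid droplet protein, as its leading gene. The corresponding cluster of BAT held 4 of 13, beside 250 of 1498 adipocyte reference and 4 of 390 blood endothelial nuclei, and that of the library labelled RP fat held 5 of 47, beside 0 of 42 and 1 of 29.

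**Figure D4:**
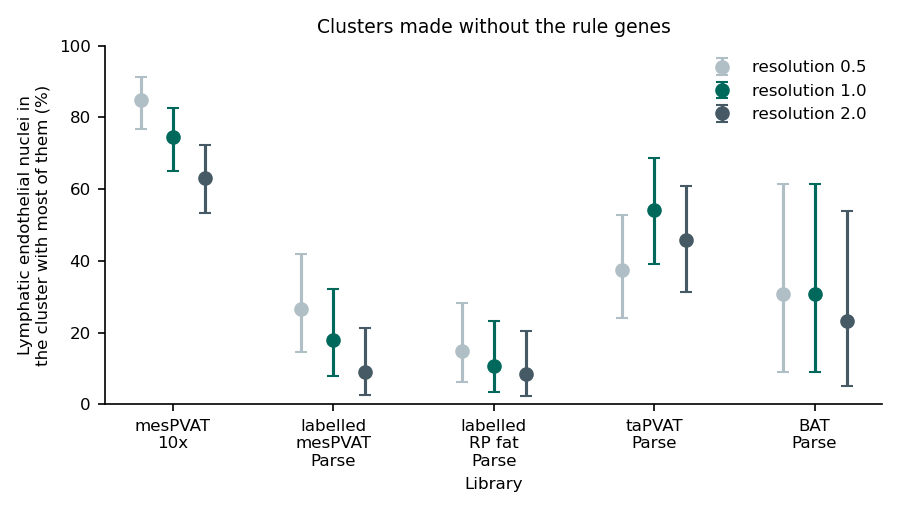
Percentage of each library's lymphatic endothelial nuclei that lay in the cluster holding most of them, at Leiden resolutions 0.5, 1.0 and 2.0, with exact 95% intervals. At resolution 1.0 the value is 74.5% in 10x mesPVAT, 54.2% in taPVAT, 30.8% in BAT, 17.8% in the white Parse library labelled mesPVAT and 10.6% in that labelled RP fat.

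Lymphatic and blood endothelial nuclei of the same library were then compared over the 5 rat libraries, which served as replicates, by edgeR's quasi-likelihood test on UMIs summed per library and class with the library as a block. Of 10587 genes tested, 20 (0.189%) were called higher and 29 (0.274%) lower in lymphatic nuclei at a Benjamini-Hochberg adjusted p under 0.05, and 657 had an unadjusted p under 0.05. DESeq2 called 7 higher (0.0661%) and 17 lower (0.161%), and 19 of its 24 calls were among the 49. Without the 10x library 23 genes were called higher and 108 lower, and when all genes of the Parse annotation were also let in, 21 of 13026 (0.161%) were higher and 123 (0.944%) lower. No gene was called without taPVAT (226 at unadjusted p under 0.05). Without BAT 13 were called higher and 2 lower, and without the library labelled mesPVAT 12 and 10. Where a UMI of Prox1 was required of every lymphatic nucleus, 0 genes were called higher (443 had an unadjusted p under 0.05) and 2 lower (0.0196%), Mecom and Ccdc85a, and with the 10x library and taPVAT alone none was called (81 at unadjusted p under 0.05).

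Of the 11 tested lymphatic surface and secreted genes, 2 were called higher, Dtx1 and Ccl21, and none lower. The list, with both of these genes in it, had a median log2 difference of 1.57 against -0.04 over all genes. With DESeq2 both calls were lost, at log2 differences of 4.46 for Dtx1 and 3.95 for Ccl21. Macrophage genes, of which 6 were tested, had a median of 0.96 with none called, and their part in the list's values was not tested. Dtx1, an E3 ligase of the Notch pathway that acts inside the cell although it stands on this list, had 14 UMIs in the 10x lymphatic nuclei and 9 in those of taPVAT, and 0 in the blood endothelial nuclei of both. It had 4 against 0 in the library labelled RP fat, 2 against 1 in BAT and none in either class of the library labelled mesPVAT. Its log2 difference was 5.20 (SE 1.00, edgeR adjusted p = 0.000409). Ccl21, the chemokine ligand of Ccr7, rested on 10 UMIs in 5 nuclei, 4 UMIs in 3 nuclei of taPVAT and 3 UMIs in 1 nucleus each of BAT and the library labelled mesPVAT, with 0 in all blood endothelial nuclei (5.92, SE 1.38, edgeR adjusted p = 0.0112). No UMI of Ccl21 was seen in the 118 nuclei of the 10x library. The gene's 10 UMIs only just met the fit's filter, and all lay in lymphatic nuclei. Dtx1 also met that filter through its lymphatic UMIs, its 1 blood endothelial UMI being in BAT. The p of neither gene is therefore taken as support for the lists that hold it. Pkhd1l1 stood at 3489 CPM (2981 to 4058) in lymphatic and 2214 CPM (956 to 4363) in blood endothelial nuclei of the 10x library, and at 1076 CPM (875 to 1309) and 117 CPM (84.5 to 157) in taPVAT. It missed the threshold (log2 1.69, edgeR adjusted p = 0.0719), as did the scavenger receptor Stab1, which macrophages also carry (1.59, adjusted p = 0.144) with 689 CPM against 65.2 CPM in taPVAT.

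The gene with the smallest p was Sema3d. Sema3d, a secreted class 3 semaphorin, had 38 UMIs in lymphatic and 0 in blood endothelial nuclei of the 10x library and 22 against 2 in taPVAT. It had 4 against 2 in the library labelled mesPVAT, 4 against 1 in that labelled RP fat and 4 against 3 in BAT. As CPM it was higher in all 5 libraries (log2 3.90, SE 0.64, edgeR adjusted p = 1.04e-05), at 789 CPM (558 to 1083) in the 10x lymphatic nuclei and 237 CPM (148 to 358) in those of taPVAT, where blood endothelial nuclei had 5.43 CPM. Tgfa, a ligand of the EGF receptor, had 61 UMIs against 3 in taPVAT, 64 against 1 in the 10x library and 26 against 3 in that labelled RP fat. It went the other way in the library labelled mesPVAT, with 1 against 2, and in BAT, with 0 against 13 (log2 3.14, SE 0.58, edgeR adjusted p = 0.000303). Glis3, a Kruppel-like zinc finger factor, had 105 UMIs against 13 in taPVAT and 174 against 2 in the 10x library, and was higher in 4 of 5 libraries (2.59, SE 0.51, adjusted p = 0.000736).

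Sema3a, a semaphorin needed for lymphatic valves, was the 1 called gene of the valve and collector list, of 10 tested (log2 2.23, SE 0.55, edgeR adjusted p = 0.0171). It had 22 UMIs against 0 in the 10x library, 23 against 8 in taPVAT, 13 against 2 in that labelled RP fat and 4 against 4, of fewer UMIs in all, in that labelled mesPVAT, so that its CPM was higher in these 4, and 0 against 7 in BAT. The integrin Itga9 reached 1059 CPM (789 to 1392) in the 10x lymphatic nuclei but did not pass (1.13, adjusted p = 0.509). The polarity gene Celsr1 had 13 UMIs against 0 in the 10x library and 5 against 3 in taPVAT (1.73, adjusted p = 0.574). Also called were Ston2, an endocytic adaptor (2.96), the calcium channel subunit Cacna2d3 (2.25), the polarity protein Pard6g (3.17), the phosphatase Ptpn3 (2.38) and the tetraspanin Tspan5 (2.13), all on the log2 scale. In taPVAT Cacna2d3 had a UMI in 56.3% of lymphatic nuclei (median 1454 UMIs), 10.7% of blood endothelial nuclei (1255 UMIs) and 25.2% of adipocyte reference nuclei (1968.5 UMIs). Ston2, Cacna2d3, Pard6g and Tspan5 were higher in 5 of 5 libraries, and Ptpn3 in 4.

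Among the genes called lower were members of both endothelial lists. Of the 10 named here by their p, 9 lost their call without BAT, all but Scarb1, and each kept its direction. The lymphatic side of the fit included the BAT nuclei and the taPVAT nuclei without Prox1. Their pan-endothelial level stood below that of all other nuclei of their libraries, and their part in the lower calls was not tested. With a UMI of Prox1 required, only Mecom and Ccdc85a were called lower. The blood endothelial side was chosen by UMIs of blood endothelial genes. Of 21 tested blood endothelial genes 2 were called lower, Notch4 and Adgrf5, with a list median of -1.64, and of 22 pan-endothelial genes Mecom and Cyyr1, with a median of -0.99. Mecom, a zinc finger factor of arterial and hematopoietic programs, had 70 UMIs in lymphatic and 632 in blood endothelial nuclei of taPVAT, 2 and 16 in the 10x library, 15 and 1452 in BAT, 30 and 104 in the library labelled mesPVAT and 14 and 17 in that labelled RP fat. As CPM it was lower in all 5 (log2 -1.97, SE 0.43, edgeR adjusted p = 0.00374), at 41.5 CPM (5.03 to 150) against 4428 CPM (2531 to 7192) in the 10x library. Scarb1, the HDL receptor, had 1 against 97 UMIs in taPVAT and 2 against 130 in BAT (-2.67, SE 0.54, adjusted p = 0.00118). Slc26a10, a member of an anion transporter family, had 6 against 261 and 2 against 571, but none in either class of the 10x library or that labelled RP fat (-3.42, SE 0.65, adjusted p = 0.000409). Ccdc85a (-2.43), Cmtm8 (-3.72), Runx1t1 (-2.56) and Hspa12b (-2.18) were called lower without being higher in any library, whereas Kitlg (-2.39), the ligand of Kit, was lower in 3 and higher in 2 libraries, and Cyyr1 (-2.11) and the junction protein Jam2 (-2.37) were lower in 4 and higher in 1.

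**Figure D5:**
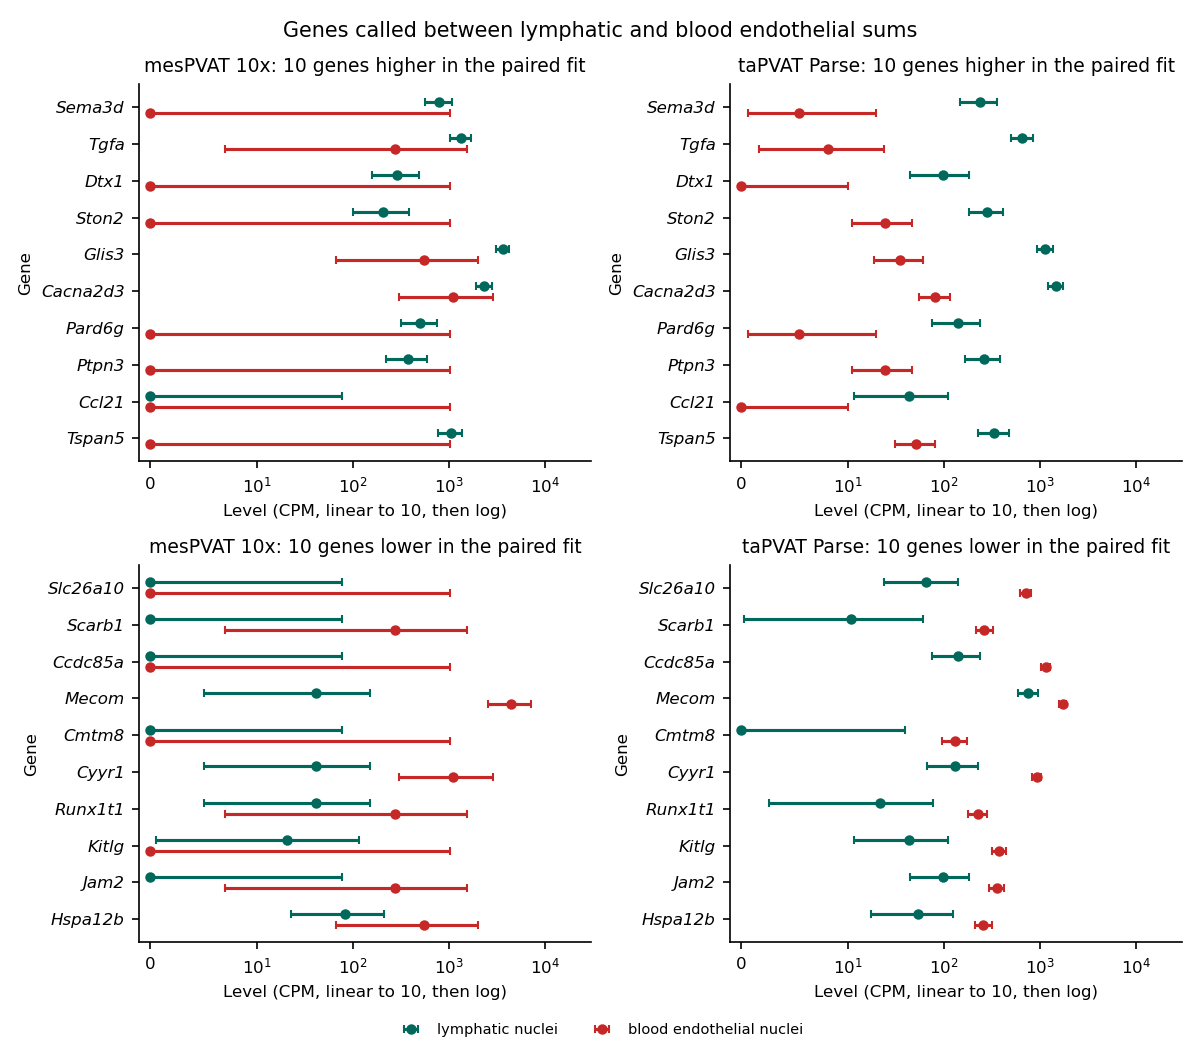
Level (CPM, linear to 10 and then log) of the 10 genes with the smallest p among those called higher (top) and lower (bottom), in lymphatic and blood endothelial nuclei of 10x mesPVAT (left) and taPVAT (right), with exact Poisson 95% intervals. In taPVAT Sema3d stands at 237 CPM against 5.43 CPM, and the wide 10x blood intervals come from 11 nuclei.

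Calls were rare over all genes, at 0.189% higher and 0.274% lower, so that 0 calls in a short list says nothing particular about it. Among the VEGF-C genes, 0 of 9 tested were called. Kdr, encoding VEGFR2, had 172 CPM (98.4 to 280) in lymphatic and 641 CPM (562 to 728) in blood endothelial nuclei of taPVAT (log2 -1.54, edgeR adjusted p = 0.196), and Nrp2, the co-receptor for VEGF-C, 549 CPM (409 to 721) and 326 CPM (270 to 390) (0.53, adjusted p = 1). Of the chemokine list, 6 tested, Ccl21 was called higher on the few UMIs given above, a call lost with DESeq2. Cxcl12, the ligand of Cxcr4, was called lower (log2 -2.20, SE 0.54, edgeR adjusted p = 0.0186). Cxcl12 had 6 UMIs against 240 in taPVAT, 8 against 473 in BAT and 0 in both classes of the 10x library. The scavenging receptor Ackr3 was abundant in the 10x library, at 1288 CPM (987 to 1650) in lymphatic and 3321 CPM (1716 to 5802) in blood endothelial nuclei, and low in taPVAT, at 86.1 and 32.6 CPM. Of the 10 junction genes tested only Jam2 was called, and the list's median was -0.80. Spns2, which exports sphingosine 1-phosphate, stood at 581 CPM (386 to 840) in the 10x and 269 CPM (174 to 397) in the taPVAT lymphatic nuclei, against 42.1 and 19.5 CPM in adipocyte reference nuclei, and missed the threshold against blood endothelial nuclei (0.12, adjusted p = 1). Of 7 angiopoietin genes, 8 lymphatic transcription factors, 5 reelin signalling genes, 4 sphingosine 1-phosphate genes and 8 fatty acid genes tested, none was called, with list medians of -0.84, 0.30, 0.39, 0.02 and -1.28. Tbx1, which acts upstream of Flt4, had 9 UMIs against 1 in the 10x library and 5 against 0 in taPVAT (3.38, adjusted p = 0.29).

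The genes most enriched over blood endothelial nuclei within taPVAT were named by the ratio of CPM among genes seen in at least 10% of lymphatic nuclei with at least 10 UMIs. They were Tgfa (80.6-fold, 26.3 to 401), Lbp, Sema3d (43.6-fold, 10.7 to 382), Glis3 (32.0-fold, 17.9 to 62.1), the unnamed gene ENSRNOG00000076979 (28.7-fold, 13.7 to 69.7), Vash2, Pard6g, the bicarbonate transporter Slc4a10 (19.1-fold, 9.86 to 40.5), Cacna2d3 (17.8-fold, 11.9 to 27.4) and Ston2 (11.4-fold, 5.20 to 27.8). Lbp, which binds bacterial lipopolysaccharide, had 10 UMIs, the fewest the choice allowed, against 0. That was at least 13.2-fold at a floor of 3 counts over the class, with an exact lower limit of 8.88-fold. Genes entered by their lymphatic counts and were ranked by the ratio itself. The ratios and their intervals, here and in the next paragraph, therefore describe chosen genes and test nothing. In the 10x library the 11 blood endothelial nuclei held 3613 UMIs, and 8 of its 10 named genes had 0 UMIs there, so their ratios are bounds only, at least 2.25-fold for Mllt3 against a floor of 3 counts over the class, with an exact lower limit of 1.79-fold. Glis3 and Tspan5 were among those 10 too.

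Against all other nuclei of the library, a comparison that also covers adipocytes, Glis3 was 16.8-fold higher in 10x mesPVAT (13.8 to 20.4) and 16.6-fold in taPVAT (13.2 to 20.8). In 10x mesPVAT the phosphodiesterase Pde1c led with 33.3-fold (21.7 to 51.5), followed by Pard6g (23.7-fold), Hgf, the hepatocyte growth factor that acts on Met (23.6-fold), and Klhl4 (21.2-fold), and the protocadherin Pcdh11x stood at 17.7-fold with a UMI in 27.1% of nuclei. In taPVAT ENSRNOG00000076979 (44.6-fold), Tgfa (28.1-fold), Sema3d (25.2-fold), Vash2 (23.7-fold) and Slc4a10 (21.3-fold) led, and Pkhd1l1 stood at 18.4-fold (14.5 to 23.1). Glis3 was the 1 gene among the 10 named in both libraries. Klhl4 had 30 UMIs (623 CPM) in 10x lymphatic nuclei and 0 in its blood endothelial nuclei but 75.3 CPM (30.3 to 155) against 67.9 CPM (43.9 to 100) in taPVAT. No test between the libraries was possible. Edn1, the precursor of endothelin 1, had 29 of its 35 lymphatic UMIs in 10x mesPVAT, in 17.8% of nuclei, and was called higher in the paired fit (log2 3.92, SE 1.05, edgeR adjusted p = 0.0445) with 0 UMIs in both classes of BAT and of the library labelled mesPVAT.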

How the data were processed

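The authors aligned and counted the reads and deposited UMI counts per gene and nucleus, unnormalized, for each library. The 10x counts came from Cell Ranger 7.1.0, per the file headers, on Rnor_6.0 by the study's methods, and the Parse counts from split-pipe on GRCr8, with 2 sublibraries joined. FastQC and Scanpy are named in the submitters' processing notes. Clusters were made after the study's thresholds (100 to 15000 UMIs, at most 4500 genes, at most 3% mitochondrial UMIs and 5 median absolute deviations, applied here within each library and by the study after joining samples). Everything else used all deposited nuclei. Doublets were not removed.

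The members, gene lists and tests were chosen with earlier results of these data known. Lists were used without the 15 rule genes. Named genes were all those of the lists, the 10 with the smallest p among those called higher and the 10 among those called lower, and the 10 with the largest ratio, 1 UMI added to each sum, in 10x mesPVAT and in taPVAT. The ratios against all other nuclei, the split by Prox1 and the genes named from them, as well as Edn1, were chosen after their values were seen.

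UMIs were summed per library and class, and 18346 genes were joined by symbols unique in both annotations. Genes with at least 10 UMIs over the 10 sums were fitted with edgeR 4.0.16 (TMM, glmQLFit, Benjamini-Hochberg) with the library as a block. The UMIs of 1 class alone could meet this filter. On simulated sums of this comparison with 10143 genes, 16 of 100 genes changed 4-fold and 66 of 100 changed 16-fold were called, with 0 false calls. Smaller differences were therefore mostly out of reach. The simulation gave all genes 1 common dispersion and libraries that differed only in their sums. Its recovery and its 0 false calls hold for that setting, unlike data from different kits and depots. DESeq2 1.42.0 was an alternative. Shares have exact Clopper-Pearson and CPM exact Poisson 95% intervals, and ratios exact conditional intervals. Lyve1 and Cd36 were not analysed here.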

Additional observations from a re-analysis of the deposited data

Results flagged for a closer look

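The cow library entered no comparison, and the same rule, on upper-case symbols and with 2 excluded genes in place of 3, took nuclei in it as well. It counted 111 of 2297 nuclei (4.83%, 3.99 to 5.79%), 33 of them with PROX1, beside 524 blood endothelial nuclei, a lymphatic share of 17.5% (14.6 to 20.7%). Their pan-endothelial list stood at 8831 CPM (8622 to 9043), against 14037 CPM in blood endothelial and 1679 CPM in adipocyte reference nuclei. The lymphatic surface and secreted list stood at 927 CPM (860 to 997) against 872 CPM (837 to 907) in blood endothelial nuclei. These intervals overlapped, so the lymphatic name is not borne out there by this list.

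The reelin signalling list had differences of opposite sign in brown and white libraries, all within counting error. Lymphatic minus blood endothelial nuclei came to -353 CPM in 10x mesPVAT, -103 CPM in the library labelled mesPVAT and -393 CPM in that labelled RP fat, and to 64.5 CPM in taPVAT and 24.7 CPM in BAT. The lymphatic and blood endothelial intervals overlapped in all 5, for example 244 to 499 CPM against 238 to 351 CPM in taPVAT and 349 to 826 CPM against 598 to 1416 CPM in the library labelled RP fat. The difference between the depots was not tested, and the 10x blood endothelial value rested on 3 UMIs, all of Fyn.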

How the results depend on the processing

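The number of lymphatic nuclei, 278, was 144 without Foxp2, 134 with at least 3 UMIs, 156 with Prox1 required and 69 after thinning to 200 UMIs. The 10x share of endothelial nuclei (91.5%) was 79.1%, 83.5%, 84.5% and 97.7% under these settings and 97.5% with 3 UMIs for blood endothelium, and the taPVAT share (19.0%) was 11.9%, 13.8% and 11.2% under the first 3. Under these 3 the share fell to 22.7%, 17.1% and 12.8% in the library labelled mesPVAT (41.8%), 40.7%, 32.7% and 38.9% in that labelled RP fat (63.0%) and 1.48%, 1.24% and 1.48% in BAT (3.65%), and with 3 UMIs for blood endothelium the first came to 63.9%. Genes called in the paired fit (20 higher, 29 lower, 49 in all) came to 7, 17 and 24 with DESeq2, 2, 3 and 5 without Foxp2 in the rule, 0, 2 and 2 with Prox1 required, and 0, 0 and 0 in the 10x library and taPVAT alone, a setting added after seeing the data. Without the library block 3 were lower and 17 called in all, and in the 4 Parse libraries with all genes of their annotation 123 were lower and 144 called in all. Leaving out each library in turn gave 0 to 26 higher, 0 to 108 lower and 0 to 131 in all. Of the 20 genes named by their p, none turned its direction under any setting. However, 19 of the 19 fitted lost their call without taPVAT, 9 of the 19 without BAT (all of them among the lower) and 17 of the 19 fitted where Prox1 was required. Of all 20, 15 lost it without Foxp2 in the rule, 12 without the library block and 8 with DESeq2. The causes were not tested. No paired analysis by replicate number was possible because each depot and platform had 1 library. With Prox1 the taPVAT levels moved from 7402 to 9756 CPM for pan-endothelial and from 2388 to 3240 CPM for lymphatic surface genes, without Prox1 to 3757 and 1070 CPM, and the 10x level of the latter without Prox1 from 5648 to 6451 CPM. At Leiden resolution 0.5 the 10x cluster held 84.9% and that of taPVAT 37.5% of lymphatic nuclei, and at 2.0 the 10x cluster held 63.2%. The 11 blood endothelial nuclei of the 10x library limit every comparison there.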
